A study of Homo sapiens with 2 samples.

Results

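Histone genes fall into those copied in clusters and expressed with DNA replication, and single genes for replacement variants that are expressed throughout the cell cycle. The rule took protein-coding genes of the deposited table named HIST1H to HIST4H, together with H2AFX, H2AFZ, H2AFV, H2AFY, H3F3A, H3F3B, H1F0 and H1FX. It gave 62 of 27655 genes, of which 54 are named HIST1H to HIST4H and are called clustered here, and 8 are replacement variants. HIST4H4 on chromosome 12 is counted among the 54 although it is the only HIST4 gene. RNA came from routinely cultured PC9-BrM3, a brain-metastatic subline of PC9 lung adenocarcinoma cells. One group is labelled PCDH1 knockdown (shPCDH1) and the other WT (shNC), with 1 GEO sample each. The sources used here do not say how many hairpins or clones were used, or whether libraries came from separate cultures.

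The deposited table sets group 8 against group 7 and names 6 library codes, and no label ties a code to shPCDH1 or shNC. Direction is therefore written as group 8 relative to group 7, and the 20 columns of values per library or group were not used, so neither levels nor depth are given here. Every fold change is the log2 fold change of the authors' deposited table. The ± value after it is a standard error back-calculated from the deposited p on the assumption of a Wald test, since the test itself is not stated. These p-values measure only how libraries vary, and that variation may be technical. PCDH1, a protocadherin and the targeted gene, had -1.38 ± 0.14 in the authors' deposited table, and this value was not used to assign a code to a label. Of 5 epithelial and lung adenocarcinoma markers, all measured, the keratin gene KRT18 was called lower at -0.50 ± 0.17. KRT8 at -0.35 ± 0.17, KRT19 at -0.26 ± 0.15, NKX2-1 at -1.96 ± 1.06 and EPCAM at 0.079 ± 0.10 were not called.

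Nucleosomes wrap DNA around a core of histones H2A, H2B, H3 and H4, and linker histone H1 binds between them. Clustered histone genes are transcribed in S phase with the coactivator NPAT. Most of their mRNAs end in a stem-loop, bound by SLBP, instead of a poly-A tail. Replacement variants such as H3.3 and H2A.Z have polyadenylated mRNAs. The libraries were made from RNA captured on poly-T beads, a step that recovers mRNAs without a tail poorly. How much of the signal of a clustered gene came from tailed transcripts was not tested.

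The histone 3' stem-loop consensus was sought on the sense strand of the GENCODE 29 transcripts. It is shown for both called genes that hold it, for HIST1H4I just outside the threshold and for HIST1H2BC, the neighbour of HIST1H2AC, with capitals marking the stem-loop word. It was present in 29 of 54 clustered genes, in 1 of 8 replacement variants (H2AFX) and in 60 of 19922 protein-coding genes, or 0.301%. The 60 include these histone genes. The models of 19 clustered genes hold coding sequence alone, so their ends could not be searched. The word was not found in the transcripts of HIST1H3E, which says only that these letters are not there.

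HIST1H2AC, chr6:26124669-26124684, plus strand: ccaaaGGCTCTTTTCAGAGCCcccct

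H2AFX, chr11:119094898-119094913, minus strand: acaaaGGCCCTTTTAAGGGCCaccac

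HIST1H4I, chr6:27139654-27139669, plus strand: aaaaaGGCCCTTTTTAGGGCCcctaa

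HIST1H2BC, chr6:26123472-26123487, minus strand: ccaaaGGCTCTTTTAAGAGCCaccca

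In HIST1H2AC and H2AFX, annotated transcripts run on for up to 1128 and 1044 bases past this word, against 212 in HIST1H4I and 116 in HIST1H2BC. HIST1H2AC and HIST1H2BC each also have an annotated transcript whose first exon ends before the word. That transcript joins a second exon of 1031 bases in HIST1H2AC and of 263 bases in HIST1H2BC.

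The 250 bases before a RefSeq start site (GRCh38.p14) are shown for 4 genes called in the comparison, 2 higher and 2 lower, with capitals marking the TATA box word TATAAA, then the CCAAT box word and the octamer ATTTGCAT, on either strand. No marked word overlaps another in these windows.

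HIST1H2AC, chr6:26123922-26124171, plus strand: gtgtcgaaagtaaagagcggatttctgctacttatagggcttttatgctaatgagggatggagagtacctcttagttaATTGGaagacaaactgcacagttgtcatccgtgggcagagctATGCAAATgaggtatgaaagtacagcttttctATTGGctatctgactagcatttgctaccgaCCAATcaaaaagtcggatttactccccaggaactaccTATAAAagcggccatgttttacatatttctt

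HIST1H3E, chr6:26223928-26224177, plus strand: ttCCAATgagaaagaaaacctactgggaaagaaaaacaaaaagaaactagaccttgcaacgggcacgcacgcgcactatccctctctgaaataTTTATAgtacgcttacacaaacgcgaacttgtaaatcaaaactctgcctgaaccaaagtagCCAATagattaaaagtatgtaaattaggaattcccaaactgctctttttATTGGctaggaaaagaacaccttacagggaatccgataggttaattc

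H2AFX, chr11:119095466-119095715, minus strand: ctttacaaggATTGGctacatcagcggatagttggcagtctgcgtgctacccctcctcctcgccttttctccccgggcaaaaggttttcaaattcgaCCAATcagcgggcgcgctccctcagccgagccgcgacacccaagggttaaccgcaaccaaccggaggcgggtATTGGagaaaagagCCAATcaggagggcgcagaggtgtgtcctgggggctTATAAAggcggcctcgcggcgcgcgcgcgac

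H1FX, chr3:129316287-129316536, minus strand: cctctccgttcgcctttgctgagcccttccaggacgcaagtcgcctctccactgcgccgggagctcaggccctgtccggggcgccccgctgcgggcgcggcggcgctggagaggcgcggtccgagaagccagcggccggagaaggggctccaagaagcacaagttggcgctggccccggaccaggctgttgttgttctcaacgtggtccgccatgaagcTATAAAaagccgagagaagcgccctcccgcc

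Windows of 250 bases before to 50 after the start were matched for 56 of 62 genes. In them CCAAT was present in all 15 H2B, 11 H2A, 8 H3 and 5 H1 genes that matched, in 1 of 10 H4 genes, and in 34.6% of 35116 windows of all genes. TATAAA was present in 32 of 49 clustered genes, against 11.5% of all windows. Each word was counted on either strand and at any position, so a TATAAA match need not be a TATA box. A gene was counted if any of its windows held the word, while the shares over all genes are per window. The octamer was present in 11 of 15 H2B and 7 of 11 H2A genes, in 0 H1, H3 and H4 genes, in 1 of 7 replacement variants (H3F3B), and in 1.77% of all windows. The windows of H2A and H2B genes that lie back to back overlap, so their matches are not separate. In HIST1H2AC the window above held 3 CCAAT words, 1 octamer and 1 TATAAA, and that of H1FX held TATAAA and no CCAAT. HIST1H3E has 2 RefSeq start sites. In the window shown, before the start of its long transcript, TATAAA is on the opposite strand, 157 bases before the start. The 250 bases before the other start, at 26224885 to 26225134 and just ahead of the coding sequence, hold 4 CCAAT words and no TATAAA. Most of this stretch, from 26224902 on, lies within an exon of the long transcript, and it is not shown.

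Of the 8 replacement variants, 5 were lower in group 8 and 0 higher, while 2 of the 54 clustered genes were higher and 0 lower. Calls are the authors' adjusted p under 0.05, so only genes given an adjusted p below 1 could be called. These were all 8 replacement variants, 24 of the 54 clustered genes and 18002 of the 27655 genes of the table. Over the whole table, 14.1% of genes were called, 7.28% lower and 6.78% higher. Over protein-coding genes these shares were 11.5% lower and 10.9% higher, and 22.3% in either direction. The 7 calls among the 62 genes are 2 higher and 5 lower. The median log2 fold change was -0.39 over the 8 replacement variants, 0.25 over the 54 clustered genes and 0.0013 over all genes.

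**Figure D1:**
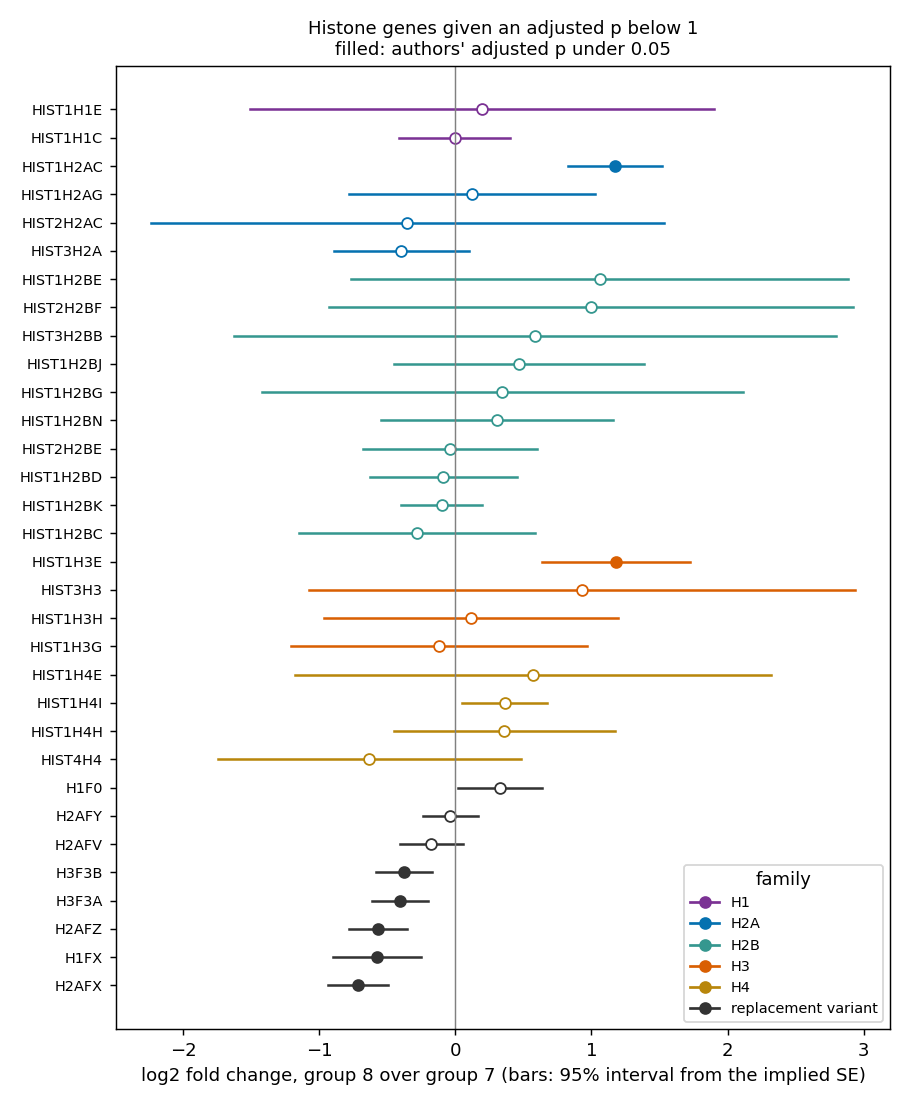
Log2 fold change of group 8 over group 7 for the 32 histone genes with an adjusted p below 1, grouped by family, with 95% intervals from the implied standard error and filled points for called genes. H2AFX, H1FX, H2AFZ, H3F3A and H3F3B lie left of 0 with narrow intervals, and HIST1H2AC and HIST1H3E lie right of 0.

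Among H2A replacement variants, H2AFX (ENSG00000188486) encodes H2A.X, which is phosphorylated around DNA double-strand breaks. It had a log2 fold change of -0.72 ± 0.11, a 1.64-fold lower level in group 8, with an authors' adjusted p of 1.33e-08. H2AFX is the replacement variant with both a stem-loop word and a long transcript, and only 0.311% of its 50-base words occur in transcripts of other genes. H2AFZ (ENSG00000164032), which encodes H2A.Z, a variant found at promoters and regulatory elements, had -0.57 ± 0.11, a 1.48-fold lower level, with an authors' adjusted p of 5.79e-06. It shares 223 exonic bases with the antisense gene AC097460.1, which is listed at an adjusted p of 1. Its paralog H2AFV, which encodes the second H2A.Z protein, had -0.18 ± 0.12 and no call, with a 95% interval from -0.41 to 0.055. The interval of H2AFZ was -0.78 to -0.35, and the difference between the paralogs was not tested. H2AFY encodes macroH2A1, a variant with a large extra domain, and had -0.036 ± 0.10, with an interval from -0.24 to 0.16. A total of 28.3% of its 50-base words are shared, chiefly with the antisense gene C5orf66.

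Both H3.3 genes were lower in group 8, and their intervals overlap. H3F3A (ENSG00000163041) and H3F3B (ENSG00000132475) encode the same protein, which is placed outside replication by HIRA and by DAXX with ATRX. H3F3A had -0.41 ± 0.10, a 1.32-fold lower level, at an authors' adjusted p of 0.00118. H3F3B had -0.38 ± 0.11, a 1.30-fold lower level, at an adjusted p of 0.00332. H3F3A has processed pseudogenes that can take its reads: 11.7% of its 50-base words occur in transcripts of other genes, most often H3F3AP4, which had -0.22 ± 0.15 and no call. H3F3B overlaps exons of UNK on the opposite strand, and UNK itself was called lower at -0.43 ± 0.15. The labels' library protocol describes no step that marks strand, and without one reads in the shared bases cannot be assigned to either gene.

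Of the replacement linker histones, 1 of 2 was called. H1FX (ENSG00000184897) encodes H1.10 and had -0.58 ± 0.16, a 1.49-fold lower level, with an authors' adjusted p of 0.00374. Its antisense partner H1FX-AS1 had -0.64 ± 0.41 with no call, and 17.2% of the 50-base words of H1FX are shared, most often with that partner. H1F0 encodes H1.0, known for accumulating in cells that stop dividing or differentiate. It had 0.33 ± 0.16, an unadjusted p of 0.0347 and an adjusted p of 0.119, so it was not called. Its 95% interval, 0.024 to 0.64, lay above that of H1FX, -0.90 to -0.26.

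Both clustered genes that were higher lie in the first block of the HIST1 cluster on chromosome 6, before a gap of over 300 kb. Most of the 17 HIST1 genes with an adjusted p below 1 lie in that block too. HIST1H2AC (ENSG00000180573, 26124145 to 26139116, plus strand) encodes a replication-dependent H2A. It had 1.17 ± 0.18, or 2.25-fold higher in group 8, with an authors' adjusted p of 1.4e-09. Its transcripts join a first exon of up to 605 bases, which holds the whole coding sequence, to a second exon of up to 1063 bases that starts at 26138054. HIST1H3E (ENSG00000274750, 26224199 to 26227473, plus strand) encodes a replication-dependent H3 and had 1.18 ± 0.28, or 2.27-fold higher, with an adjusted p of 0.000313. One of its 2 annotated transcripts is a single exon of 462 bases and the other ends in an exon of 2572 bases. HIST1H2AC shares 0.421% and HIST1H3E 1.71% of 50-base words with other genes, and no other annotated exon overlaps either of them. Which transcript the reads came from was not tested.

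HIST1H2BC, which encodes an H2B and is transcribed away from HIST1H2AC across 218 bases, had -0.28 ± 0.44 with no call. The interval of HIST1H2BC, -1.14 to 0.59, lay below that of HIST1H2AC, 0.83 to 1.52. Back-to-back H2A and H2B genes formed 8 pairs with gaps of 218 to 330 bases, of which 4 had an adjusted p below 1 for both genes. In HIST1H2BJ and HIST1H2AG the values were 0.47 ± 0.47 and 0.12 ± 0.46, in HIST2H2BE and HIST2H2AC -0.035 ± 0.33 and -0.35 ± 0.96, and in HIST3H2A and HIST3H2BB -0.40 ± 0.25 and 0.59 ± 1.13. None of these 6 genes was called, and the intervals of each pair overlapped.

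**Figure D2:**
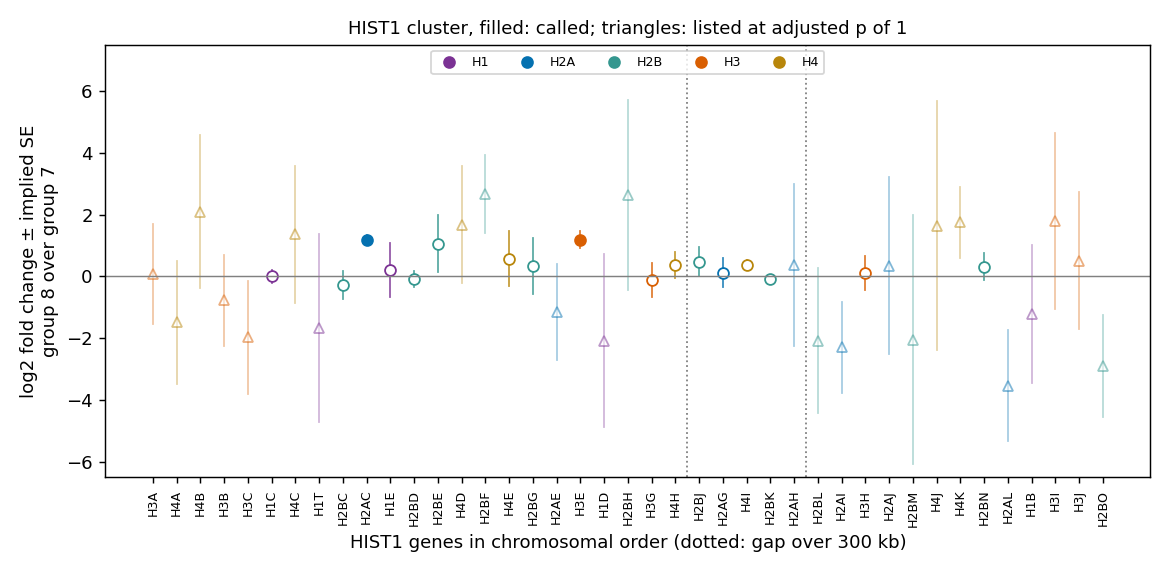
Log2 fold change of group 8 over group 7, with bars of 1 implied standard error, for the 41 HIST1 genes in chromosomal order. Filled points are called genes, triangles are genes listed at an adjusted p of 1, and dotted lines mark gaps over 300 kb. HIST1H2AC and HIST1H3E are the filled points, with uncalled genes on both sides of each.

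By family, calls among clustered genes were 1 of 12 H2A genes and 1 of 10 H3 genes, both higher, and 0 of 15 H2B, 0 of 12 H4 and 0 of 5 H1 genes. These 0 counts come from the authors' comparison, in which a gene could be called only if it received an adjusted p below 1. That held for 10 H2B, 4 H4 and 2 H1 genes, and for 4 H2A and 4 H3 genes. The 4 uncalled genes of the whole set with an unadjusted p under 0.05 were H1F0, HIST1H4I, HIST1H2BF and HIST1H2AL. HIST1H4I, which encodes H4, was the uncalled gene nearest the threshold, at 0.36 ± 0.16 with an adjusted p of 0.0865. H1FX was the called gene nearest to it, at an authors' adjusted p of 0.00374, and stayed called at a threshold of 0.01. HIST1H2BF had 2.67 ± 1.28 and HIST1H2AL -3.54 ± 1.78, both listed at an adjusted p of 1.

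The highest and lowest genes of a family, among those with an adjusted p below 1, had intervals that overlap in H1, H2B, H3 and H4 and not in H2A. For H2B these were HIST1H2BE at 1.06 ± 0.93 and HIST1H2BC at -0.28 ± 0.44. HIST1H2BE shares 730 exonic bases with the antisense gene AL353759.1, and 30.5% of its 50-base words occur in other genes. For H4 the highest and lowest were HIST1H4E at 0.57 ± 0.89 and HIST4H4 at -0.63 ± 0.57. For H1, HIST1H1E had 0.20 ± 0.87 and HIST1H1C, which encodes H1.2, had -0.0034 ± 0.21. The lowest H3 gene was HIST1H3G at -0.12 ± 0.56, and the lowest H2A gene was HIST3H2A at -0.40 ± 0.25, whose interval up to 0.099 lay below that of HIST1H2AC. HIST1H3G reached 0.97, inside the interval of HIST1H3E.

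Polyadenylated transcripts have been described for some clustered genes in differentiated or non-dividing cells. Of 8 such genes listed, 1 was higher and 0 lower, against 14.1% of all genes called in either direction, and their median was -0.061. HIST1H2AC was the one called. HIST1H2BK had -0.10 ± 0.15, HIST1H1C -0.0034 ± 0.21, HIST1H2BD -0.087 ± 0.27 and HIST2H2BE -0.035 ± 0.33, with no call. HIST1H2BJ had 0.47 ± 0.47, HIST1H2BC -0.28 ± 0.44 and HIST4H4 -0.63 ± 0.57, also with no call. The 95% intervals of HIST1H2BK, -0.40 to 0.20, and of HIST1H1C, -0.41 to 0.40, do not reach the value of HIST1H2AC. Those of HIST1H2BD, HIST2H2BE, HIST1H2BC and HIST4H4 do not reach it either, while that of HIST1H2BJ, -0.45 to 1.38, does. HIST1H2BK shares 74.1% of its 50-base words with other genes, chiefly H2BFS, so its value is uncertain.

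The table gave an adjusted p below 1 for all 8 replacement variants but for 24 of 54 clustered genes, against 13609 of 15867 protein-coding genes. An adjusted p of 1 stands beside the other 30 clustered genes. Implied standard errors were 0.10 to 0.16 in the replacement variants, 0.15 to 1.13 in the 24 clustered genes and 1.15 to 4.04 in the other 30. Of the 55 uncalled genes, 4 had a 95% interval within 0.5 log2 of 0 on either side and 9 within 1. Those 9 are H1F0, H2AFY, H2AFV, HIST1H1C, HIST3H2A, HIST2H2BE, HIST1H2BD, HIST1H2BK and HIST1H4I. For the rest the interval reached a log2 change of 1 in at least 1 direction, so a 2-fold change in that direction lies within it.

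The gene model differed between clustered genes that did and did not receive an adjusted p below 1. Of 19 genes with over 1000 exonic bases, 15 received one, against 9 of 35 shorter genes. Of 19 models that hold coding sequence alone, 3 received one (HIST1H1C, HIST1H2BK and HIST2H2AC). Of 19 genes with a transcript running 200 or more bases past the stem-loop word, 15 received one, against 3 of 10 in which the word was followed by fewer bases. Those 3 include HIST1H2BC and HIST1H2BD, which also have an annotated transcript of 2 exons. The 1000 and 200 base limits were chosen after the values were seen. Across the 54 clustered genes, Spearman's rho between exonic length and implied standard error was -0.48, as a description over genes that share libraries. The part that the number of reads plays in this was not tested.

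**Figure D3:**
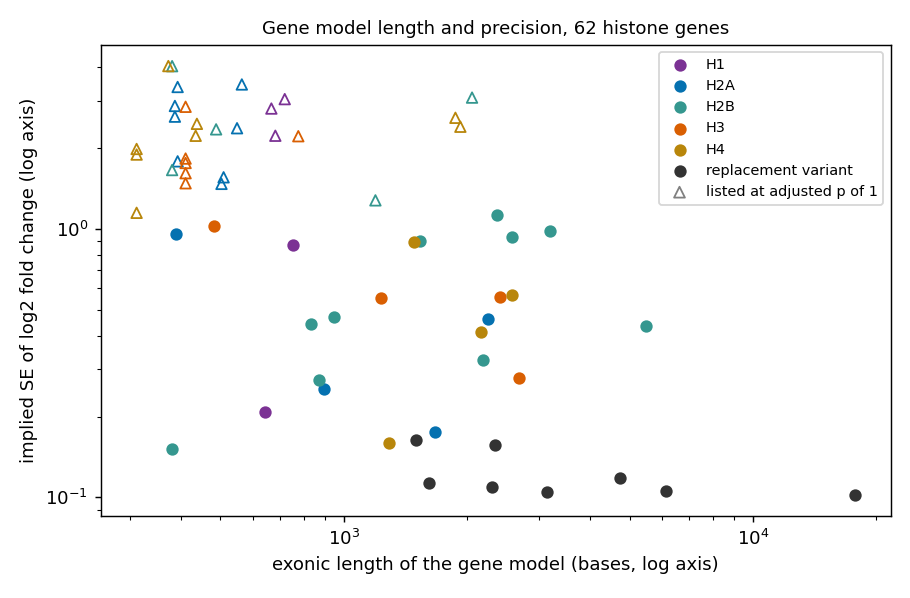
Exonic length of each of the 62 gene models against the implied standard error of its log2 fold change, both on log axes, coloured by family, with open triangles for genes listed at an adjusted p of 1. Replacement variants lie at the lower right, and short clustered genes lie mainly at the upper left.

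Near-identical copies limit 10 clustered genes, for which at least 50% of 50-base words occur in another gene. HIST2H2AA3 and HIST2H2AA4 shared 100% and 97.1%, and HIST2H4A and HIST2H4B 97.5% and 97.2%, chiefly with each other. HIST2H4B had 3.82 ± 2.40, the highest value of the set, and HIST2H4A had 1.30 ± 2.59, both listed at an adjusted p of 1. Of these 10 genes only HIST1H2BK had an adjusted p below 1.

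Histone genes outside the rule gave 1 call among the 7 of 13 found in the table. H2AFJ, which encodes H2A.J, a variant known to accumulate in senescent fibroblasts, had -0.93 ± 0.26 with an authors' adjusted p of 0.00356. CENPA, the centromeric H3 variant, had -0.44 ± 0.20 and an adjusted p of 0.0953, with no call.

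Of 16 genes for histone mRNA synthesis and processing, 4 were higher and 1 lower, with a median of 0.13. Among all protein-coding genes 10.9% were higher and 11.5% lower, with a median of 0.017. NPAT, the coactivator of clustered histone genes, had 0.54 ± 0.18, CASP8AP2 (FLASH), which works with it and in 3' end formation, 0.66 ± 0.17, and HINFP, an activator of H4 genes, 0.54 ± 0.18. CPSF3, the nuclease that cuts histone pre-mRNA, had 0.40 ± 0.14, and SRRT, a partner of the cap-binding complex, was lower at -0.49 ± 0.17. SLBP, the stem-loop binding protein, had -0.13 ± 0.13 and no call, and LSM11, a subunit of the U7 particle, had 0.53 ± 0.21 with an adjusted p of 0.0506.

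Of 28 histone chaperone and deposition genes, 1 was higher and 5 lower, with a median of -0.13. These 6 calls are a share near the 22.3% of protein-coding genes called in either direction. CHAF1A, a subunit of the CAF-1 complex that deposits H3 and H4 during replication, had -0.68 ± 0.18, and ASF1A, which hands H3 and H4 to it, -0.41 ± 0.15. SRCAP, the remodeller that installs H2A.Z, had -0.69 ± 0.18. SSRP1, a subunit of the FACT complex, had -0.39 ± 0.12 and SET -0.36 ± 0.12. UBN2, a partner of HIRA in H3.3 deposition, was the one higher, at 0.76 ± 0.20. HIRA, DAXX and ATRX themselves had -0.033 ± 0.21, 0.12 ± 0.13 and 0.21 ± 0.19, with no call.

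Of 23 S phase genes, 13 were lower and 0 higher, with a median of -0.38, against 11.5% of protein-coding genes lower and 10.9% higher. The replicative helicase genes MCM5, MCM7 and MCM3 had -1.05 ± 0.17, -0.63 ± 0.14 and -0.55 ± 0.12, GINS2 had -0.77 ± 0.14 and the sliding clamp PCNA -0.47 ± 0.10. CCNE1, whose product activates NPAT through CDK2, had 0.43 ± 0.18 and an adjusted p of 0.0664, with no call. Whether the share of cells in S phase took part in any histone value was not tested.

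**Figure D4:**
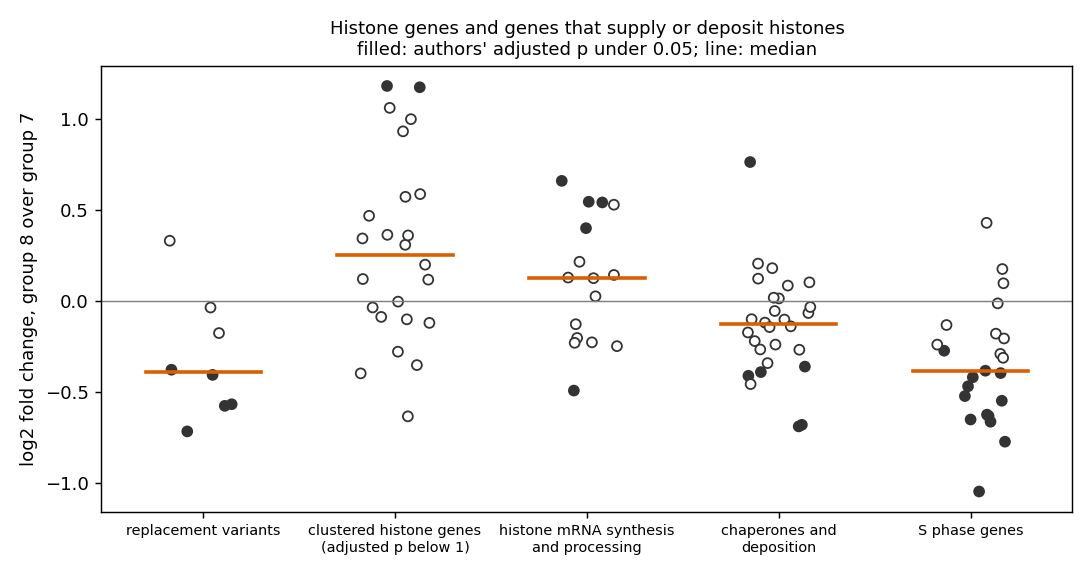
Log2 fold change of group 8 over group 7 for each gene of 5 sets, with filled points for called genes and a line at the median. The medians of replacement variants and S phase genes are -0.39 and -0.38, and those of clustered histone genes with an adjusted p below 1 and of histone mRNA processing genes are 0.25 and 0.13.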

How the data were processed

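Poly-A selected RNA of 2 GEO samples, shPCDH1 and shNC, was sequenced. The submitters' processing notes name HISAT2 2.0.5, DESeq2 1.20.0, CASAVA and featureCounts 1.5.0-p3, without roles. The authors' genome build was not stated in the sources used here. The 27655 identifiers and names all match GENCODE 29 (GRCh38), 27651 with equal start and end, so coordinates are on that build. The deposited table holds the authors' log2 fold change of group 8 over group 7, per the file headers. The deposited p-value and its adjusted form are the authors' own. The adjusted p-value is below 1 for 18002 genes and 1 for 9653. The 20 leading adjusted p-values match an adjustment over those 18002 genes alone, so the other 9653 appear to have been left out of it. Membership was taken from gene type and name, and the rule's comparison of library columns was not applied. The 20 columns per library or group were not used, because no label ties their codes to a sample, so depth is not given and no count model was fitted.

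Standard errors are the absolute log2 fold change over the normal quantile of the p-value, and 95% intervals follow from them. The calculation was tested on data simulated under the same normal assumption, which does not test whether that assumption holds for the deposited p-values. Python 3.11.15, pandas 2.3.3 and scipy 1.17.1 were used. Promoter windows are from RefSeq. The genes, lists and tests were chosen with earlier results of these data known. Named genes were all called genes, the replacement variants, the highest and lowest gene of each family with an adjusted p below 1, those next to the threshold, up to 5 called genes a list, and PCDH1; others were chosen after their values were seen. Alternatives were other thresholds, minimum folds, adjustment over other gene sets, and centring.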

Additional observations from a re-analysis of the deposited data

How the results depend on the processing

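Of the 7 calls, 2 were higher and 5 lower. With a minimum absolute log2 fold change of 0.5, 3 were lower, H3F3A and H3F3B falling below that size. With a minimum of 1, 2 were called and 0 were lower, leaving HIST1H2AC and HIST1H3E. These losses follow from the minimum itself. At adjusted p thresholds of 0.01 and 0.10, with adjustment over every deposited p-value or over protein-coding genes, and with centring on the protein-coding median of 0.0048, the counts of calls in each direction stayed within 1.5 times. The median over all 62 genes, 0.091, became 0.042 as a mean, 0.057 over genes with an adjusted p below 1, and 0.086 after centring. At an adjusted p under 0.01, calls among histone mRNA synthesis and processing genes were 1 higher and 0 lower, against 4 and 1, and those among chaperone genes were 3 in all, 2 of them lower. Among counts for subsets and gene lists, 28 values moved. Single genes lost their call in 7 settings taken gene by gene, all for the 5 called replacement variants and only under a minimum fold. The H1 median, over genes with no call, changed sign: -1.22 over all 5 genes and 0.098 over the 2 with an adjusted p below 1. No paired analysis was possible because the labels give no replicate numbers and the library columns could not be tied to samples. Library normalization, low-count filters, count models (edgeR, DESeq2) and leaving out each library were not run, because columns not tied to a labelled sample were left unused. Values per library are needed to judge whether 1 library decides a call. The precision of the 30 genes listed at an adjusted p of 1 limits what can be said of them.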

Other observations

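Histone pseudogenes listed in the authors' deposited table gave no call among those that received an adjusted p below 1 and are named here, which were chosen after their values were seen. HIST2H2BC had 0.014 ± 0.27, HIST2H2BD 0.46 ± 0.39, H3F3AP6 -0.38 ± 0.24 and H2AFVP1 -0.041 ± 0.74 on the log2 scale, group 8 over group 7.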
